A study of Canis lupus with 23 samples.

Results

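Macrophage genes are described here across 23 canine tumors. They are 37 genes listed by symbol for their use as markers of monocytes, macrophages and related phagocytes, and 35 of the 37 were found in the array's annotation of 15115 genes through 71 probesets, 1 to 5 a gene. FCGR3A and FOLR2 have no probeset there. All 35 passed the filter on low signal that kept 9972 of the 15115 genes. Each level is log2(signal + 16), averaged over the probesets of a gene. The study profiled tumor biopsies of pet dogs, with 1 Affymetrix Canine Genome 2.0 array a tumor, to ask whether expression could guide the choice of therapy within a clinical time window. By diagnosis there were 7 lymphomas, 5 melanomas, 3 transitional cell carcinomas (TCC), 4 sarcomas, and 1 tumor each of histiocytic sarcoma, hemangiosarcoma (HSA, a tumor of vessel-lining cells), hepatocellular carcinoma (HCC) and nasal tumor. The sarcomas join 2 tumors titled sarcoma and 2 titled soft tissue sarcoma (STS). Tumors are named by type and by the number in their title, which starts at 0. The methods admitted only dogs without earlier treatment, and the labels name no drug, transgene or genotype. Breed, age and site of each tumor are not given by the labels. The methods name Scottish terriers for bladder TCC, golden retrievers for lymphoma, and any breed for oral melanoma, beside a cohort open to all tumors. TCC alone was biopsied by cystoscope or under ultrasound. Breed, site and way of biopsy thus cannot be fully told apart from type, above all in TCC. A biopsy had to consist mostly of tumor nuclei to be profiled. Bulk RNA of a biopsy mixes tumor cells with infiltrating cells, and fewer cells of a type and less RNA per cell cannot be told apart in it.

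Macrophages arise from embryonic precursors and from blood monocytes, and live on signals through the CSF1 receptor. In tumors they clear dying cells, present antigen, secrete complement components and growth factors, and take up modified proteins, lipids and heme through scavenger receptors. Histiocytic sarcoma is a tumor whose cells themselves come from the macrophage and dendritic cell lineage, so that in it the same genes can be read from tumor cells and from infiltrate.

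The labels were first set against markers of other cell types. Against the other 3 types with replicates, T cell markers were higher in lymphoma for 7 of 9 genes (6.95% of all genes). B cell markers were higher there for 5 of 6. Melanocyte markers were higher in melanoma for 7 of 7 (2.55%). Fibroblast markers were higher in sarcoma for 8 of 9 (4.33%) and epithelial markers in TCC for 6 of 6 (6.82%). In the single tumors, higher means at least 1 log2 unit above the mean of the other 22 tumors. Endothelial markers were higher for 6 of 6 genes in the HSA (11.6% of all genes). Epithelial markers were higher for 6 of 6 in the nasal tumor (11.2%) and 4 of 6 in the HCC (13.5%). These counts, and those of other lists below, cover only genes past the filter. Some passed it only through the type where they are high, as DCT did in melanoma. The counts thus describe the labels and do not test them. Of 8 annotated endothelial genes 6 passed. TEK and ROBO4 did not, at 7.18 and 4.77 in the HSA. The share of probesets with a signal below 16 ran from 19.8% to 27.2%, the latter in the HCC. The log2 ratio of the 3' to the 5' GAPDH control probesets, a sign of RNA and amplification quality, ran from 5.12 to 9.74, the latter in soft tissue sarcoma 1. The same ratio for the EF1A control ordered the arrays otherwise. It ran from 7.27 in sarcoma 1 to 13.46 in the HCC, with 11.79 in TCC 1 and 8.02 in soft tissue sarcoma 1. The part of signal quality in the results was not tested.

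The macrophage genes varied widely from tumor to tumor. The median distance between the highest and the lowest tumor was 4.88 log2 units for the 35 genes and 2.88 for all 9972. The histiocytic sarcoma held the highest level of 15 of the 35 genes, against 3.28% of all genes, the HSA of 7 (3.62%), the HCC of 2 (9.21%) and the nasal tumor of 1 (4.68%). The other 10 maxima were spread over 8 tumors, 3 of them in sarcoma 1. APOE, a lipid carrier that macrophages secrete, had the smallest range, from 5.58 in lymphoma 5 to 8.25 in sarcoma 1. ADAMDEC1, a secreted metalloprotease known from macrophages of mucosal tissue, had the widest, from 4.13 in the histiocytic sarcoma, next to the floor of 4 that a signal of 0 would give and level with sarcoma 1, to 13.69 in the nasal tumor. The probesets of APOE disagreed, running from 5.79 to 9.81, from 5.32 to 10.60 and from 4.15 to 6.28. The small range of their average is therefore uncertain.

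**Figure D1:**
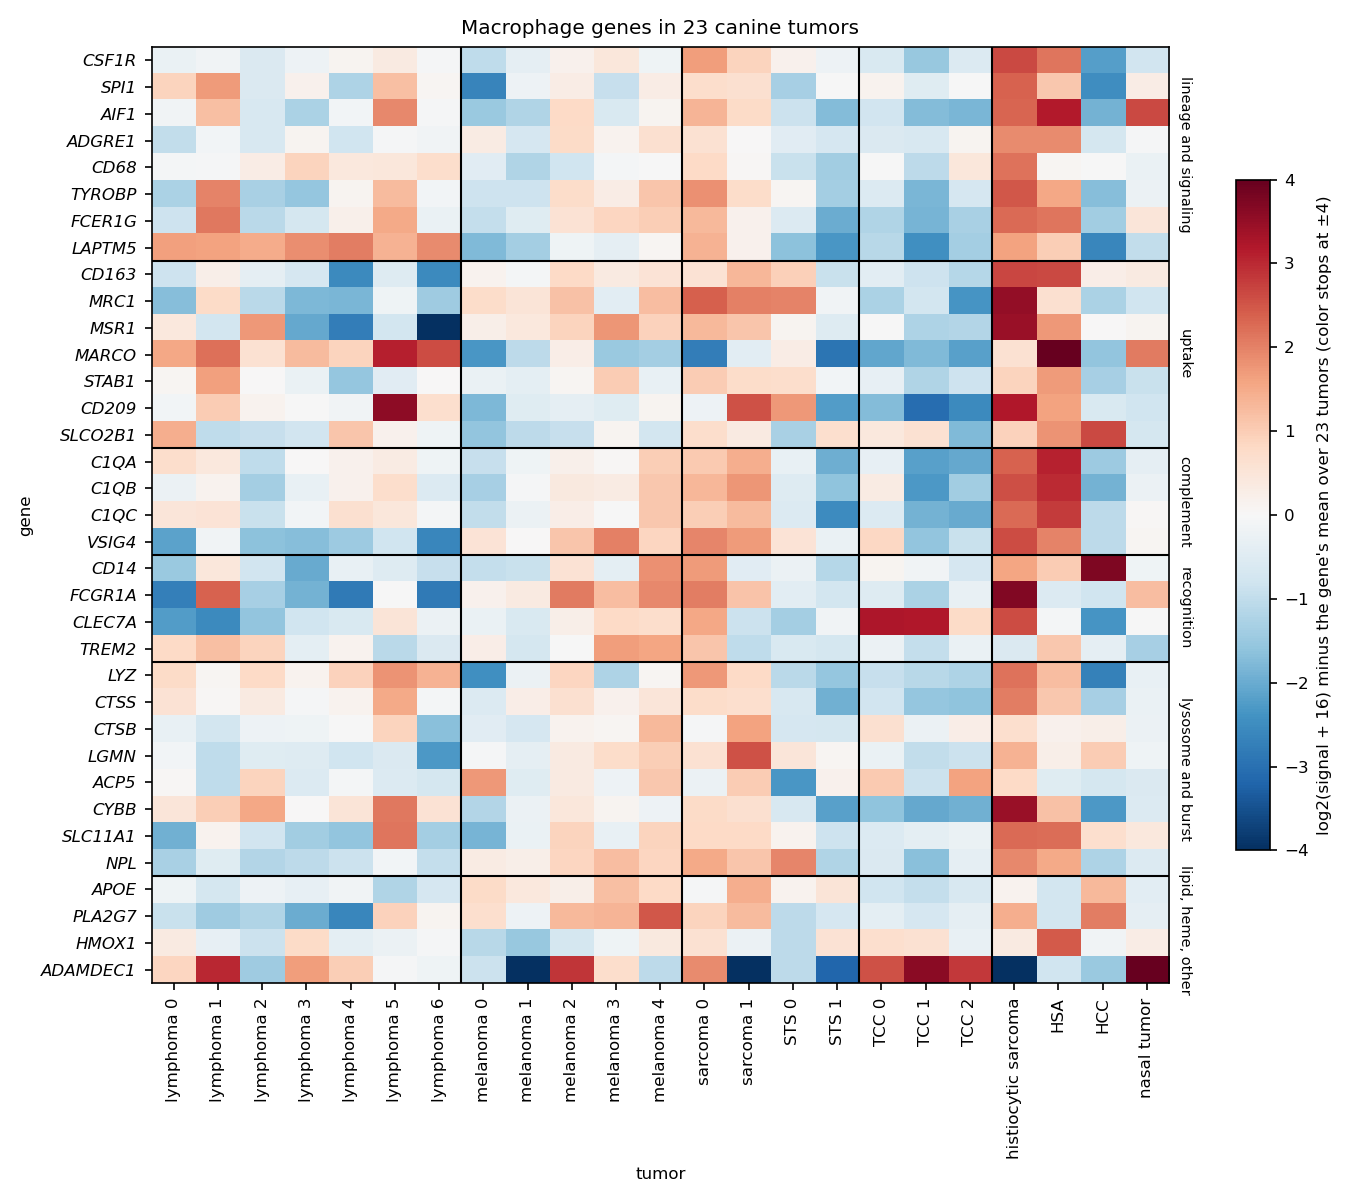
Levels of the 35 macrophage genes (rows, grouped by role) in the 23 tumors (columns, grouped by type) as log2(signal + 16) minus the gene's mean over all tumors. The histiocytic sarcoma and the HSA columns are red for most genes, LAPTM5 and MARCO are red in all 7 lymphomas, and ADAMDEC1 runs against the other genes in the histiocytic sarcoma.

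A mean of the standardized levels (z, the distance from the gene's mean over the 23 tumors in units of its SD) over the 35 genes put the tumors in order. The histiocytic sarcoma stood at 1.44 and the HSA at 1.08, followed by sarcoma 0 at 0.76, sarcoma 1 at 0.61 and melanoma 4 at 0.55. The lowest were TCC 1 at -0.80, soft tissue sarcoma 1 at -0.73 and TCC 2 at -0.58. Lymphomas ran from -0.43 in lymphoma 6 to 0.36 in lymphoma 5, melanomas from -0.45 in melanoma 0 to 0.55 in melanoma 4, and the HCC and the nasal tumor stood at -0.48 and -0.09. The 4 types with replicates overlapped on this mean, and the sarcomas alone covered most of its range among those types. The histiocytic sarcoma was above its gene's median in 33 of 35 genes, the HSA in 30, sarcoma 0 in 31 and TCC 1 in 5.

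**Figure D2:**
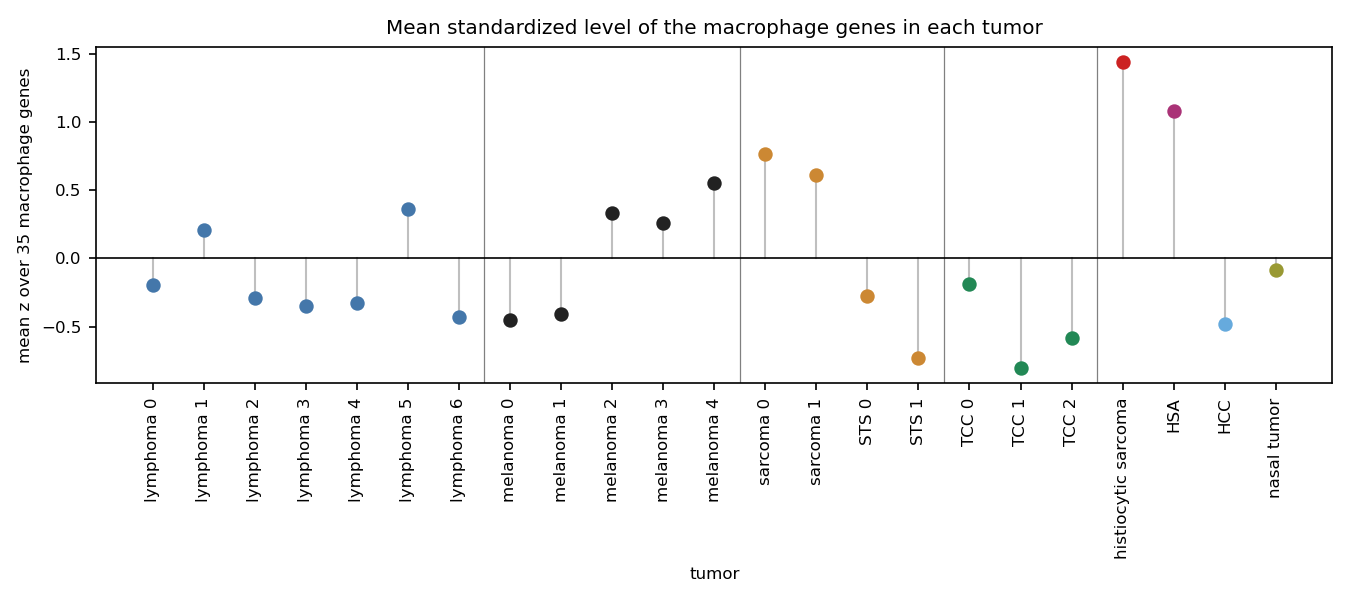
Mean z over the 35 macrophage genes (vertical axis, SD units) for each of the 23 tumors (horizontal axis, grouped by type, colored by type). The histiocytic sarcoma (1.44) and the HSA (1.08) stand above all others, and the 2 tumors titled sarcoma lie above 0 while the 2 titled soft tissue sarcoma (STS) lie below it.

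Each of the 4 types with replicates was set against the average of the remaining 3 in 1 limma fit over the 19 tumors and all 9972 genes. Calls needed an adjusted p under 0.05 and a change of 1 log2 unit or more in either direction. The fit takes 1 spread a gene for all 4 types. The median SD of the 35 genes was 1.22 within sarcoma and 0.53 within TCC, so the SE of a gene can be too small for a type that varies more. Of the 35 macrophage genes, 5 were higher in lymphoma (6.95% of all genes) and 8 lower (12.1% of all genes). There were 3 that were higher in sarcoma (4.33%) and 0 lower (1.71%), and 1 that was higher in TCC (6.82%) and 7 lower (4.36%). Melanoma had 0 calls in either direction in limma (2.55% and 1.77% of all genes were higher and lower), with 6 genes at an unadjusted p under 0.05. Differences among the 4 types passed the F test of the same fit for 15 of the 35 genes, against 35.6% of all genes. The share of macrophage genes lay above that of all genes in 5 of these 9 counts, furthest for genes lower in TCC (7 of 35 against 4.36%), and below it in 4, namely higher in TCC, lower in sarcoma and both directions in melanoma.

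The median log2 fold change of the 35 genes was -0.86 in TCC, where that of all genes was -0.08, and 28 of the 35 had a negative value. It was 0.39 in melanoma (all genes -0.05), 0.30 in sarcoma (-0.04) and 0.04 in lymphoma (0.07). Lymphocyte markers had lower values in TCC as well, with a median log2 fold change of -1.73 for 9 T cell genes, 3 of them called lower, and of -2.07 for 6 B cell genes, 2 of them called lower, and their part in the shift of the macrophage genes was not tested. The counts leaned on single tumors, and those over all genes moved too. The number lower in TCC was 1 without TCC 1 (1.61% of all genes in that fit) or without TCC 2 (2.56%), 3 without TCC 0 (2.36%) and 11 without soft tissue sarcoma 1 (4.63%). The number higher there was 0 without TCC 0 (4.41%) or TCC 1 (5.01%) and 2 without sarcoma 0, lymphoma 1 or melanoma 2 (6.64% to 7.02%). The number higher in sarcoma was 1 without sarcoma 0, sarcoma 1, melanoma 0 or TCC 1 (3.27% to 3.92%), and 5 without soft tissue sarcoma 1 (3.42%), while 1 was lower without sarcoma 0 (2.32%) or melanoma 1 (1.54%). The number lower in lymphoma was 4 or 5 when any 1 of 10 of the 19 tumors was left out (11.3% to 12%), melanoma had 1 higher without lymphoma 1, lymphoma 5, melanoma 2 or sarcoma 1 (2.31% to 2.63%), and 9 genes passed the F test without TCC 1 (30.2%). Of the 35 genes, 16 were called in at least 1 type, making 24 calls. With each of the 19 tumors left out in turn, 8 of the 24 calls held every time: LAPTM5, MARCO, VSIG4, CLEC7A, CYBB, LYZ and MRC1 in lymphoma and MRC1 in sarcoma. A call was lost where its adjusted p or its size no longer passed. The other settings tried were 7: a pseudocount of 1 or of 64 in place of 16, quantile normalization, no filter, the brightest probeset of a gene, no variance trend, and the type against all other tumors of the 23 as 2 groups. LAPTM5, MARCO and VSIG4 in lymphoma kept their calls in all 7, and the other 5 of the 8 lost theirs in the comparison of 2 groups alone. The methods count samples by enrolled dog, so the tumors of a type were taken as those of separate dogs.

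**Figure D3:**
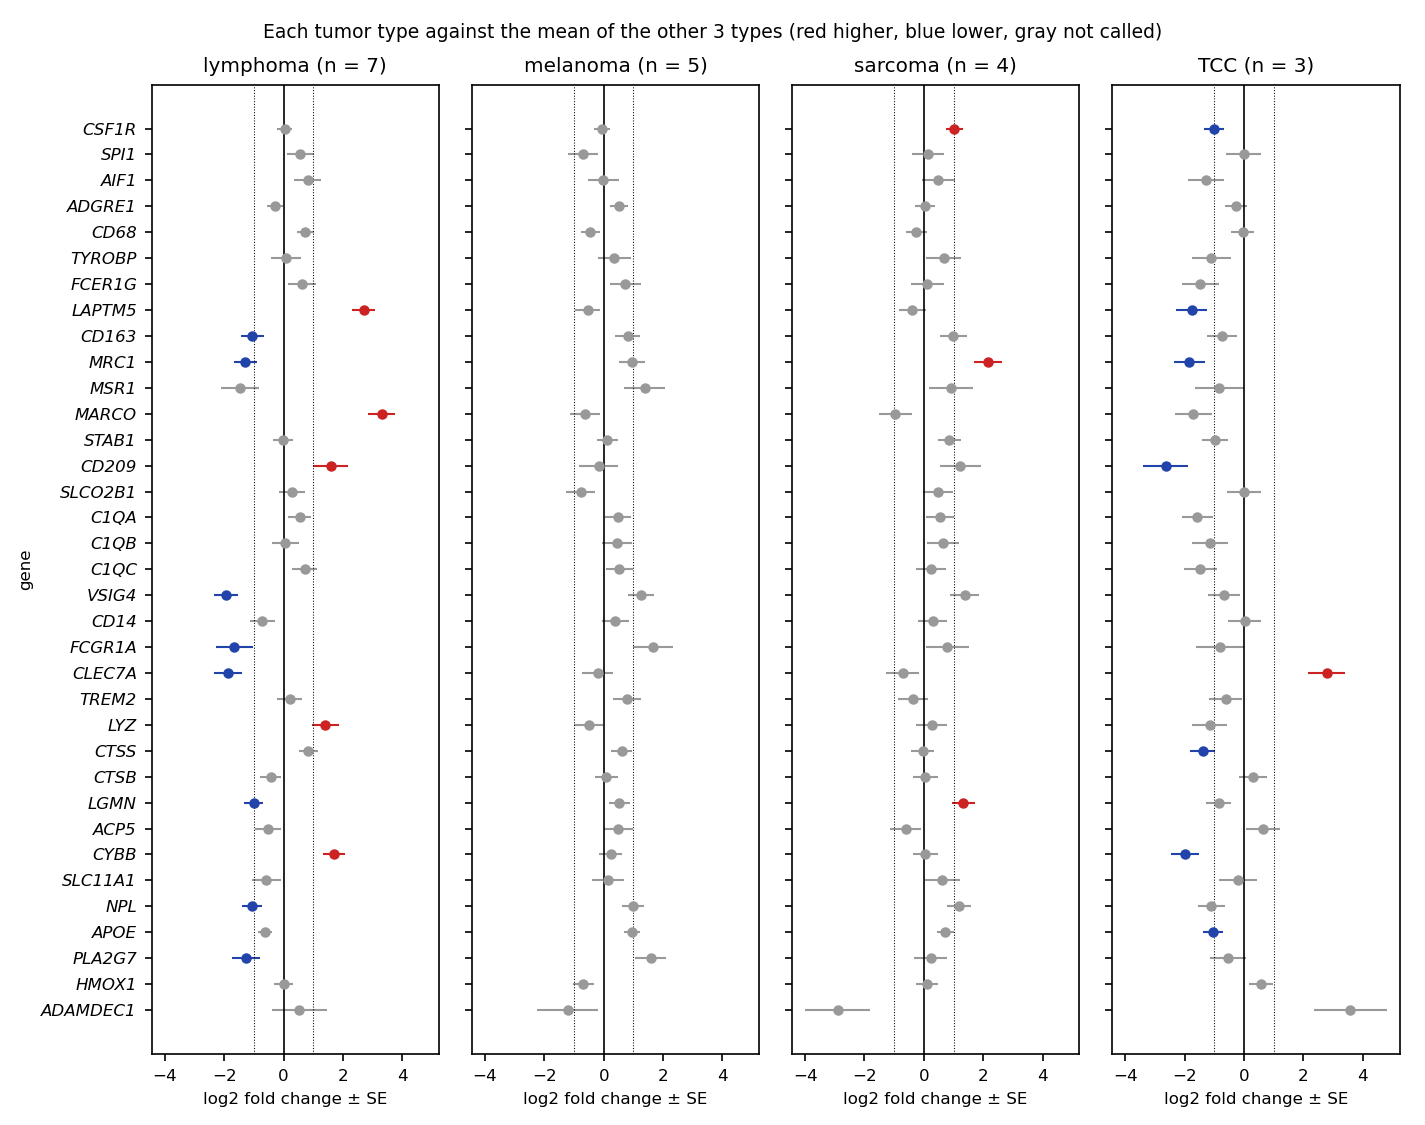
log2 fold change ± SE (horizontal axis) of each of the 35 macrophage genes (rows) in 4 panels, lymphoma (n = 7), melanoma (n = 5), sarcoma (n = 4) and TCC (n = 3), each against the mean of the other 3 types. Red points were called higher and blue lower, gray points were not called, and dotted lines mark 1 and -1. Lymphoma has called genes on both sides, melanoma has none, and 28 of 35 points lie left of 0 in TCC.

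CSF1R, the receptor for the macrophage growth factors CSF1 and IL34, stood at 11.38 and 10.61 in sarcomas 0 and 1, 9.90 and 9.52 in soft tissue sarcomas 0 and 1. It was 9.15 to 10.07 (median 9.58) in the 7 lymphomas, and 8.70, 9.34, 9.88, 10.17 and 9.54 in melanomas 0 to 4. It was 9.10, 8.20 and 9.17 in TCC 0 to 2. Both tumors titled sarcoma were above all 15 tumors of the other 3 types, and TCC 1 was below all others in the fit. The limma fit gave a log2 fold change of 1.03 ± 0.30 (SE) in sarcoma (adjusted p = 0.0379) and -1.01 ± 0.33 (SE) in TCC (adjusted p = 0.047), both just past the thresholds. For CSF1R the sarcoma call was lost without sarcoma 0 (log2 fold change 0.69, adjusted p = 0.168), without melanoma 0 (log2 fold change 0.96, adjusted p = 0.0434), without TCC 1 (log2 fold change 0.93, adjusted p = 0.0698) and without sarcoma 1 (log2 fold change 0.95, adjusted p = 0.109), and in 3 of the 7 other settings. For CSF1R the TCC call was lost when any 1 of 15 of the 19 tumors was left out, with log2 fold changes from -1.18 to -0.69 and adjusted p from 0.0501 to 0.326, and in 6 of the 7 other settings.

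LAPTM5, a lysosomal membrane protein of hematopoietic cells that lymphocytes also make, was 12.14 to 12.79 (median 12.39) in the 7 lymphomas. It was 8.99, 9.37, 10.56, 10.37 and 10.81 in melanomas 0 to 4, 12.13 and 10.91 in sarcomas 0 and 1, 9.09 and 8.42 in soft tissue sarcomas 0 and 1, and 9.64, 8.30 and 9.38 in TCC 0 to 2. Every lymphoma was above every tumor of the other 3 types, although sarcoma 0, at 12.13, lay next to the lowest lymphoma. Only LAPTM5 and MARCO among the 35 genes showed this separation, which 1.59% of all genes showed, and for 0 of the 35 were all lymphomas below (1.49% of all genes). The log2 fold change was 2.69 ± 0.39 (SE) in lymphoma (limma, adjusted p = 4.59e-05) and -1.77 ± 0.52 (SE) in TCC (adjusted p = 0.0279). T cell and B cell markers were higher in the same tumors, and their part in the LAPTM5 difference was not tested. For LAPTM5 the TCC call was lost without TCC 0 (log2 fold change -2.03, adjusted p = 0.0551), without TCC 1 (log2 fold change -1.36, adjusted p = 0.213) and without TCC 2 (log2 fold change -1.90, adjusted p = 0.0734), and in 1 of the 7 other settings.

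The other 6 lineage genes were not called in any type. CD68, a lysosomal glycoprotein used as a pan-macrophage stain, was 7.90 ± 0.36 (SD, n = 7) in lymphoma, 7.01 ± 0.50 (SD, n = 5) in melanoma, 7.16 ± 0.97 (SD, n = 4) in sarcoma and 7.32 ± 0.77 (SD, n = 3) in TCC. AIF1, the actin-binding protein IBA1, was 10.85 ± 1.09 (SD, n = 7) in lymphoma, 10.24 ± 0.95 (SD, n = 5) in melanoma, 10.61 ± 1.43 (SD, n = 4) in sarcoma and 9.27 ± 0.59 (SD, n = 3) in TCC. For both genes the ranges of all 4 types overlapped. Among the 19 tumors of the fit TYROBP, an adaptor through which activating receptors signal, ran from 8.74 in TCC 1 to 12.54 in lymphoma 1, with log2 fold changes from -1.10 in TCC to 0.67 in sarcoma. FCER1G, the adaptor of Fc receptors, ran from 7.46 in soft tissue sarcoma 1 to 11.54 in lymphoma 1, with log2 fold changes from -1.48 in TCC to 0.73 in melanoma. Lymphoma 1 topped both. SPI1, the myeloid transcription factor PU.1, ran from 4.37 in melanoma 0 to 8.70 in lymphoma 1, and ADGRE1, the F4/80 antigen, from 5.33 in lymphoma 0 to 7.06 in melanoma 2. The 2 probesets of ADGRE1 disagreed on the HCC. It was 6.38 in one, which ran only from 4.06 to 6.44, and the lowest tumor in the other, at 4.80, so the averaged level of ADGRE1 is uncertain.

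Among the uptake receptors, MARCO, a class A scavenger receptor that binds bacteria, was 7.94 to 10.44 (median 8.86) in the 7 lymphomas. It was 4.99, 6.28, 7.58, 5.84 and 5.95 in melanomas 0 to 4, 4.56 and 6.90 in sarcomas 0 and 1, 7.61 and 4.40 in soft tissue sarcomas 0 and 1, and 5.25, 5.56 and 5.14 in TCC 0 to 2. The lowest lymphoma lay just above the highest tumor of the other types, soft tissue sarcoma 0. The log2 fold change in lymphoma was 3.30 ± 0.47 (SE) (limma, adjusted p = 3.4e-05), the largest of the 24 calls. Without sarcoma 0 (log2 fold change -1.85, adjusted p = 0.0458) or soft tissue sarcoma 1 (log2 fold change -1.87, adjusted p = 0.0399) it was called lower in TCC. MSR1, the class A receptor of the same family, was 4.32 to 10.96 (median 8.50) in the 7 lymphomas. It was 9.48, 9.66, 10.12, 11.004 and 10.15 in melanomas 0 to 4, 10.52 and 10.35 in sarcomas 0 and 1, 9.35 and 8.72 in soft tissue sarcomas 0 and 1, and 9.22, 7.998 and 8.05 in TCC 0 to 2. The lymphomas held the 3 lowest tumors and, with lymphoma 2, 1 of the highest, and their SD of 2.18 was the largest of any macrophage gene within that type. The log2 fold change in lymphoma, -1.47 ± 0.63 (SE), was not called (adjusted p = 0.0795). Without lymphoma 0 (log2 fold change -1.75, adjusted p = 0.0484) or lymphoma 2 (log2 fold change -1.97, adjusted p = 0.0138) MSR1 was called lower in lymphoma, as it was in the comparison of 2 groups (log2 fold change -1.86, adjusted p = 0.0382).

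MRC1, the mannose receptor CD206, was 12.08 and 11.71 in sarcomas 0 and 1, 11.66 and 9.54 in soft tissue sarcomas 0 and 1. It was 7.87 to 10.44 (median 8.27) in the 7 lymphomas, 10.42, 10.20, 10.87, 9.26 and 10.94 in melanomas 0 to 4, and 8.42, 8.97 and 7.31 in TCC 0 to 2. The sarcomas other than soft tissue sarcoma 1 were above all tumors of the other 3 types, and lymphomas and TCC shared the low end. MRC1 was called in 3 types: higher in sarcoma by 2.17 ± 0.48 (SE) (limma, adjusted p = 0.0093), lower in lymphoma with a log2 fold change of -1.28 ± 0.40 (SE) (adjusted p = 0.0198), and lower in TCC with -1.85 ± 0.53 (SE) (adjusted p = 0.025). For MRC1 the TCC call was lost without TCC 0 (log2 fold change -1.94, adjusted p = 0.0794) and without TCC 2 (log2 fold change -1.39, adjusted p = 0.201), and in 1 of the 7 other settings.

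CD163, the receptor that clears hemoglobin bound to haptoglobin, was 4.85 to 7.64 (median 6.74) in the 7 lymphomas. It was 7.55, 7.34, 8.21, 7.77 and 7.94 in melanomas 0 to 4, 8.005 and 8.74 in sarcomas 0 and 1, 8.38 and 6.51 in soft tissue sarcomas 0 and 1, and 6.98, 6.57 and 6.26 in TCC 0 to 2. Lymphomas 4 and 6 were the lowest of all 23 tumors and the other lymphomas overlapped the TCC and the lower melanomas. It was called lower in lymphoma, at -1.05 ± 0.38 (SE) (limma, adjusted p = 0.0407). For CD163 the lymphoma call was lost when any 1 of 10 of the 19 tumors was left out, with log2 fold changes from -1.09 to -0.80 and adjusted p from 0.0529 to 0.105, and in 3 of the 7 other settings.

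CD209, the lectin DC-SIGN of dendritic cells and some macrophages, was 7.42 to 11.16 (median 7.70) in the 7 lymphomas. It was 5.79, 7.11, 7.22, 7.09 and 7.69 in melanomas 0 to 4, 7.37 and 10.11 in sarcomas 0 and 1, 9.29 and 5.33 in soft tissue sarcomas 0 and 1, and 5.84, 4.52 and 5.04 in TCC 0 to 2. Lymphoma 5 stood apart from the other lymphomas, sarcoma 1 and soft tissue sarcoma 0 were above all lymphomas but that one, and the TCC were among the 5 lowest tumors. It was called higher in lymphoma by 1.59 ± 0.58 (SE) (limma, adjusted p = 0.0414) and lower in TCC, -2.64 ± 0.76 (SE) (adjusted p = 0.0262). For CD209 the lymphoma call was lost when any 1 of 9 of the 19 tumors was left out, with log2 fold changes from 1.11 to 1.60 and adjusted p from 0.0503 to 0.109, and in 4 of the 7 other settings. For CD209 the TCC call was lost without TCC 0 (log2 fold change -2.99, adjusted p = 0.0566), without TCC 1 (log2 fold change -2.33, adjusted p = 0.152) and without TCC 2 (log2 fold change -2.59, adjusted p = 0.102), and in 3 of the 7 other settings. STAB1, a scavenger receptor that sinusoidal endothelium shares, and SLCO2B1, an organic anion transporter, were not called, with log2 fold changes from -0.97 in TCC to 0.86 in sarcoma and from -0.78 in melanoma to 0.48 in sarcoma. STAB1 ran from 6.24 in lymphoma 4 to 9.40 in lymphoma 1, and SLCO2B1 from 4.71 in TCC 2 to 7.91 in lymphoma 0.

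The complement genes split. C1QA, C1QB and C1QC encode the 3 chains of C1q, which in most tissues macrophages supply. C1QA was 10.38 ± 0.55 (SD, n = 7) in lymphoma, 10.34 ± 0.69 (SD, n = 5) in melanoma, 10.39 ± 1.54 (SD, n = 4) in sarcoma and 8.80 ± 1.03 (SD, n = 3) in TCC. C1QB was 9.24 ± 0.65 (SD, n = 7), 9.53 ± 0.89 (SD, n = 5), 9.68 ± 1.58 (SD, n = 4) and 8.33 ± 1.33 (SD, n = 3) in the same order, and C1QC was 10.91 ± 0.54 (SD, n = 7), 10.77 ± 0.74 (SD, n = 5), 10.56 ± 1.73 (SD, n = 4) and 9.27 ± 0.82 (SD, n = 3). None of the 3 was called in any type. In TCC the log2 fold changes were -1.57 ± 0.53 (SE) for C1QA (limma, adjusted p = 0.0544), -1.15 ± 0.60 (SE) for C1QB (adjusted p = 0.231) and -1.47 ± 0.55 (SE) for C1QC (adjusted p = 0.0874), none past the threshold. Without soft tissue sarcoma 1 (log2 fold change -1.80, adjusted p = 0.00778), TCC 0 (log2 fold change -2.17, adjusted p = 0.0319), melanoma 0 (log2 fold change -1.65, adjusted p = 0.0414) or lymphoma 2 (log2 fold change -1.63, adjusted p = 0.044) C1QA was called lower in TCC, as it was with the brightest probeset (log2 fold change -1.51, adjusted p = 0.0479). Without soft tissue sarcoma 1 (log2 fold change -1.73, adjusted p = 0.00863) C1QC was called lower in TCC. Within each of the 4 types the 3 chains had the same tumor on top except in lymphoma.

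VSIG4, the complement receptor CRIg of resident macrophages, was 5.07 to 7.51 (median 6.01) in the 7 lymphomas. It was 8.20, 7.68, 8.76, 9.68 and 8.52 in melanomas 0 to 4, 9.61 and 9.38 in sarcomas 0 and 1, 8.21 and 7.41 in soft tissue sarcomas 0 and 1, and 8.50, 6.09 and 6.77 in TCC 0 to 2. The lymphomas overlapped TCC 1, TCC 2 and soft tissue sarcoma 1, and every melanoma was above every lymphoma. Its log2 fold change in lymphoma was -1.95 ± 0.40 (SE) (limma, adjusted p = 0.00121), and the call held under all alternatives run. In melanoma and sarcoma it was 1.26 ± 0.45 (SE) (adjusted p = 0.109) and 1.37 ± 0.48 (SE) (adjusted p = 0.0885), not called. Without soft tissue sarcoma 1 (log2 fold change 1.78, adjusted p = 0.0463) or TCC 0 (log2 fold change 1.60, adjusted p = 0.0452) it was called higher in sarcoma.

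Of the recognition receptors, CLEC7A, the fungal glucan receptor dectin-1, was 10.33, 10.30 and 7.87 in TCC 0 to 2. It was 4.54 to 7.60 (median 6.29) in the 7 lymphomas, 6.81, 6.49, 7.33, 7.90 and 7.80 in melanomas 0 to 4, and 8.62 and 6.22 in sarcomas 0 and 1, 5.73 and 6.94 in soft tissue sarcomas 0 and 1. TCC 0 and TCC 1 were above all 20 other tumors outside the TCC group, while TCC 2 lay within the melanomas, and lymphoma 1 was lowest, close to the floor of 4. It was called higher in TCC by 2.78 ± 0.63 (SE) (limma, adjusted p = 0.00522) and lower in lymphoma, -1.86 ± 0.48 (SE) (adjusted p = 0.00587), both on the log2 scale. For CLEC7A the TCC call was lost without TCC 0 (log2 fold change 2.36, adjusted p = 0.0642) and without TCC 1 (log2 fold change 2.38, adjusted p = 0.0651).

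FCGR1A, the high-affinity IgG receptor, was 5.46 to 10.65 (median 6.40) in the 7 lymphomas. It was 8.47, 8.66, 10.39, 9.54 and 10.22 in melanomas 0 to 4, 10.36 and 9.42 in sarcomas 0 and 1, 7.89 and 7.56 in soft tissue sarcomas 0 and 1, and 7.79, 7.04 and 7.99 in TCC 0 to 2. Lymphoma 1 was above all other tumors of the fit while 5 of the other 6 lymphomas were below all tumors of the other types. It was called lower in lymphoma at -1.65 ± 0.61 (SE) (limma, adjusted p = 0.044). For FCGR1A the lymphoma call was lost when any 1 of 12 of the 19 tumors was left out, with log2 fold changes from -1.65 to -1.40 and adjusted p from 0.0545 to 0.102, and in 3 of the 7 other settings. Without lymphoma 1 (log2 fold change 1.86, adjusted p = 0.0335) it was called higher in melanoma. In lymphoma 1 the neutrophil markers were also high, with a mean z of 1.71 over 6 genes against -0.62 to 0.08 in the other 6 lymphomas. They were uneven, with MPO at 12.46, the highest of all tumors, and MMP9 at 6.29. The dendritic cell marker FLT3 was 12.25 there, also the highest of all tumors. The part of these genes' cells in the FCGR1A level of lymphoma 1 was not tested. CD14, the co-receptor for bacterial lipopolysaccharide, was 9.08 ± 0.80 (SD, n = 7) in lymphoma, 9.91 ± 1.18 (SD, n = 5) in melanoma, 9.84 ± 1.22 (SD, n = 4) in sarcoma and 9.64 ± 0.39 (SD, n = 3) in TCC, with no call. TREM2, a lipid receptor that signals through TYROBP, ran from 4.96 in lymphoma 5 to 7.73 in melanoma 3 and was not called. Its 4 probesets had their highest tumor in the HSA, the HSA, sarcoma 0 and melanoma 4, so its averaged level is uncertain.

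Among the genes of the lysosome and the oxidative burst, CYBB, the catalytic subunit of the phagocyte oxidase, which B cells also make, was 8.79, 8.35 and 8.50 in TCC 0 to 2. It was 10.43 to 12.54 (median 11.01) in the 7 lymphomas, 9.23, 10.19, 10.87, 10.52 and 10.23 in melanomas 0 to 4, and 11.17 and 11.06 in sarcomas 0 and 1, 9.79 and 8.25 in soft tissue sarcomas 0 and 1. All lymphomas were above all TCC, the melanomas lay above the TCC and reached into the lymphomas, and soft tissue sarcoma 1 was below every TCC. The log2 fold change was 1.70 ± 0.36 (SE) in lymphoma (limma, adjusted p = 0.00137) and -1.98 ± 0.47 (SE) in TCC (adjusted p = 0.00806). For CYBB the TCC call was lost without TCC 1 (log2 fold change -1.88, adjusted p = 0.0562), and in 1 of the 7 other settings.

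LYZ, lysozyme, was 12.44 to 14.16 (median 13.16) in the 7 lymphomas. It was 9.91, 12.12, 13.21, 11.11 and 12.43 in melanomas 0 to 4, 14.09 and 13.15 in sarcomas 0 and 1, 11.28 and 10.82 in soft tissue sarcomas 0 and 1, and 11.44, 11.25 and 11.12 in TCC 0 to 2. All lymphomas were above all TCC, and overlapped the melanomas and sarcomas. The log2 fold change in lymphoma was 1.41 ± 0.44 (SE) (limma, adjusted p = 0.0192).

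CTSS, a cathepsin that processes class II antigen complexes, was 10.89, 10.09 and 10.04 in TCC 0 to 2. It was 11.58 to 13.16 (median 11.80) in the 7 lymphomas, 11.08, 11.92, 12.28, 11.80 and 12.14 in melanomas 0 to 4, and 12.38 and 12.32 in sarcomas 0 and 1, 11.01 and 9.72 in soft tissue sarcomas 0 and 1. All TCC were below all lymphomas and all melanomas, and soft tissue sarcoma 1 was below every TCC. CTSS was called lower in TCC at -1.40 ± 0.42 (SE) (limma, adjusted p = 0.0311). For CTSS the TCC call was lost without TCC 1 (log2 fold change -1.27, adjusted p = 0.156) and without TCC 2 (log2 fold change -1.25, adjusted p = 0.156), and in 2 of the 7 other settings.

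LGMN, the asparagine-specific protease legumain, was 10.07 and 12.001 in sarcomas 0 and 1, 9.95 and 9.55 in soft tissue sarcomas 0 and 1. It was 7.17 to 9.37 (median 8.89) in the 7 lymphomas, 9.40, 9.11, 9.81, 10.19 and 10.45 in melanomas 0 to 4, and 9.19, 8.48 and 8.60 in TCC 0 to 2. Sarcoma 1 was well above all others, the remaining sarcomas were within the melanomas, and lymphoma 6 was the lowest tumor. It was called higher in sarcoma by 1.33 ± 0.39 (SE) (limma, adjusted p = 0.0407) and lower in lymphoma, -1.002 ± 0.33 (SE) (adjusted p = 0.0235). For LGMN the sarcoma call was lost when any 1 of 9 of the 19 tumors was left out, with log2 fold changes from 0.79 to 1.48 and adjusted p from 0.05001 to 0.203, and in 3 of the 7 other settings. For LGMN the lymphoma call was lost when any 1 of 6 of the 19 tumors was left out, with log2 fold changes from -0.97 to -0.76 and adjusted p from 0.0254 to 0.0625, and in 2 of the 7 other settings.

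NPL, a sialic acid lyase, was 7.22 to 8.41 (median 7.56) in the 7 lymphomas. It was 8.85, 8.77, 9.37, 9.75 and 9.38 in melanomas 0 to 4, 10.04 and 9.63 in sarcomas 0 and 1, 10.47 and 7.32 in soft tissue sarcomas 0 and 1, and 7.95, 6.84 and 8.17 in TCC 0 to 2. Melanomas were above all lymphomas, and it was called lower in lymphoma, at -1.08 ± 0.34 (SE) (limma, adjusted p = 0.02). For NPL the lymphoma call was lost without lymphoma 0 (log2 fold change -0.9996, adjusted p = 0.0444), without soft tissue sarcoma 0 (log2 fold change -0.95, adjusted p = 0.0306) and without TCC 2 (log2 fold change -0.99, adjusted p = 0.043), and in 1 of the 7 other settings. Without soft tissue sarcoma 1 (log2 fold change 1.86, adjusted p = 0.00187) it was called higher in sarcoma. Without soft tissue sarcoma 1 (log2 fold change -1.33, adjusted p = 0.00601) it was called lower in TCC. The other 3 genes of this group were not called in any type. CTSB, a cathepsin of most cells, ran from 10.78 in lymphoma 6 to 14.07 in sarcoma 1. ACP5, the tartrate-resistant acid phosphatase, ran from 5.68 in soft tissue sarcoma 0 to 9.74 in melanoma 0. SLC11A1, a metal transporter of the phagosome, ran from 5.69 in lymphoma 0 to 9.75 in lymphoma 5.

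The last group joins lipid and heme enzymes with ADAMDEC1. PLA2G7, a secreted phospholipase that cleaves oxidized lipids, was 4.36 to 7.92 (median 5.78) in the 7 lymphomas. It was 7.65, 6.79, 8.27, 8.36 and 9.45 in melanomas 0 to 4, 7.87 and 8.26 in sarcomas 0 and 1, 5.94 and 6.30 in soft tissue sarcomas 0 and 1, and 6.60, 6.31 and 6.63 in TCC 0 to 2. Lymphomas 0 to 4 were below all TCC and all melanomas, lymphomas 5 and 6 lay with the other types, and melanoma 4 was highest. It was called lower in lymphoma at -1.27 ± 0.47 (SE) (limma, adjusted p = 0.0436). For PLA2G7 the lymphoma call was lost when any 1 of 13 of the 19 tumors was left out, with log2 fold changes from -1.30 to -0.998 and adjusted p from 0.0561 to 0.108, and in 2 of the 7 other settings. Without lymphoma 5 (log2 fold change 1.69, adjusted p = 0.0401) it was called higher in melanoma.

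APOE was 5.98, 5.84 and 6.14 in TCC 0 to 2. It was 5.58 to 6.65 (median 6.47) in the 7 lymphomas, 7.54, 7.21, 7.03, 7.99 and 7.60 in melanomas 0 to 4, and 6.76 and 8.25 in sarcomas 0 and 1, 6.92 and 7.29 in soft tissue sarcomas 0 and 1. All TCC were below all melanomas and all sarcomas, and overlapped the lymphomas. It was called lower in TCC at -1.04 ± 0.32 (SE) (limma, adjusted p = 0.0364), and in melanoma it passed the adjusted p but not the size, at 0.94 ± 0.27 (SE) (adjusted p = 0.0447). For APOE the TCC call was lost without TCC 0 (log2 fold change -1.04, adjusted p = 0.127), without TCC 1 (log2 fold change -0.97, adjusted p = 0.159), without TCC 2 (log2 fold change -1.12, adjusted p = 0.0916) and without sarcoma 1 (log2 fold change -0.94, adjusted p = 0.0397), and in 5 of the 7 other settings. Without melanoma 2 (log2 fold change 1.05, adjusted p = 0.049) or sarcoma 1 (log2 fold change 1.05, adjusted p = 0.0155) it was called higher in melanoma. The 3 probesets of APOE disagreed on the highest tumor (sarcoma 1, soft tissue sarcoma 0 and the HCC), so its averaged level is uncertain. With the brightest probeset its log2 fold change in TCC was -0.51 (limma, adjusted p = 0.637). HMOX1, which breaks down heme, was not called, with log2 fold changes from -0.69 in melanoma to 0.58 in TCC.

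ADAMDEC1 was 11.92, 12.98 and 12.20 in TCC 0 to 2. It was 7.95 to 12.41 (median 10.26) in the 7 lymphomas, 8.53, 4.65, 12.26, 10.08 and 8.34 in melanomas 0 to 4, and 11.29 and 4.13 in sarcomas 0 and 1, 8.35 and 6.23 in soft tissue sarcomas 0 and 1. The TCC, lymphoma 1 and melanoma 2 were the 5 highest of the 19 tumors, and melanoma 1 and sarcoma 1 were close to the floor. The log2 fold changes of 3.58 ± 1.21 (SE) in TCC (limma, adjusted p = 0.0567) and -2.91 ± 1.10 (SE) in sarcoma (adjusted p = 0.114) were not called, with SDs of 3.06 and 2.79 within the sarcomas and the melanomas. Without sarcoma 0 (log2 fold change 4.005, adjusted p = 0.0183), lymphoma 1 (log2 fold change 3.71, adjusted p = 0.0456) or melanoma 2 (log2 fold change 3.87, adjusted p = 0.0282) it was called higher in TCC, as it was with a pseudocount of 64 (log2 fold change 3.20, adjusted p = 0.0384). Without sarcoma 0 (log2 fold change -4.17, adjusted p = 0.0249) or melanoma 1 (log2 fold change -3.25, adjusted p = 0.046) it was called lower in sarcoma. A single probeset measures it.

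**Figure D4:**
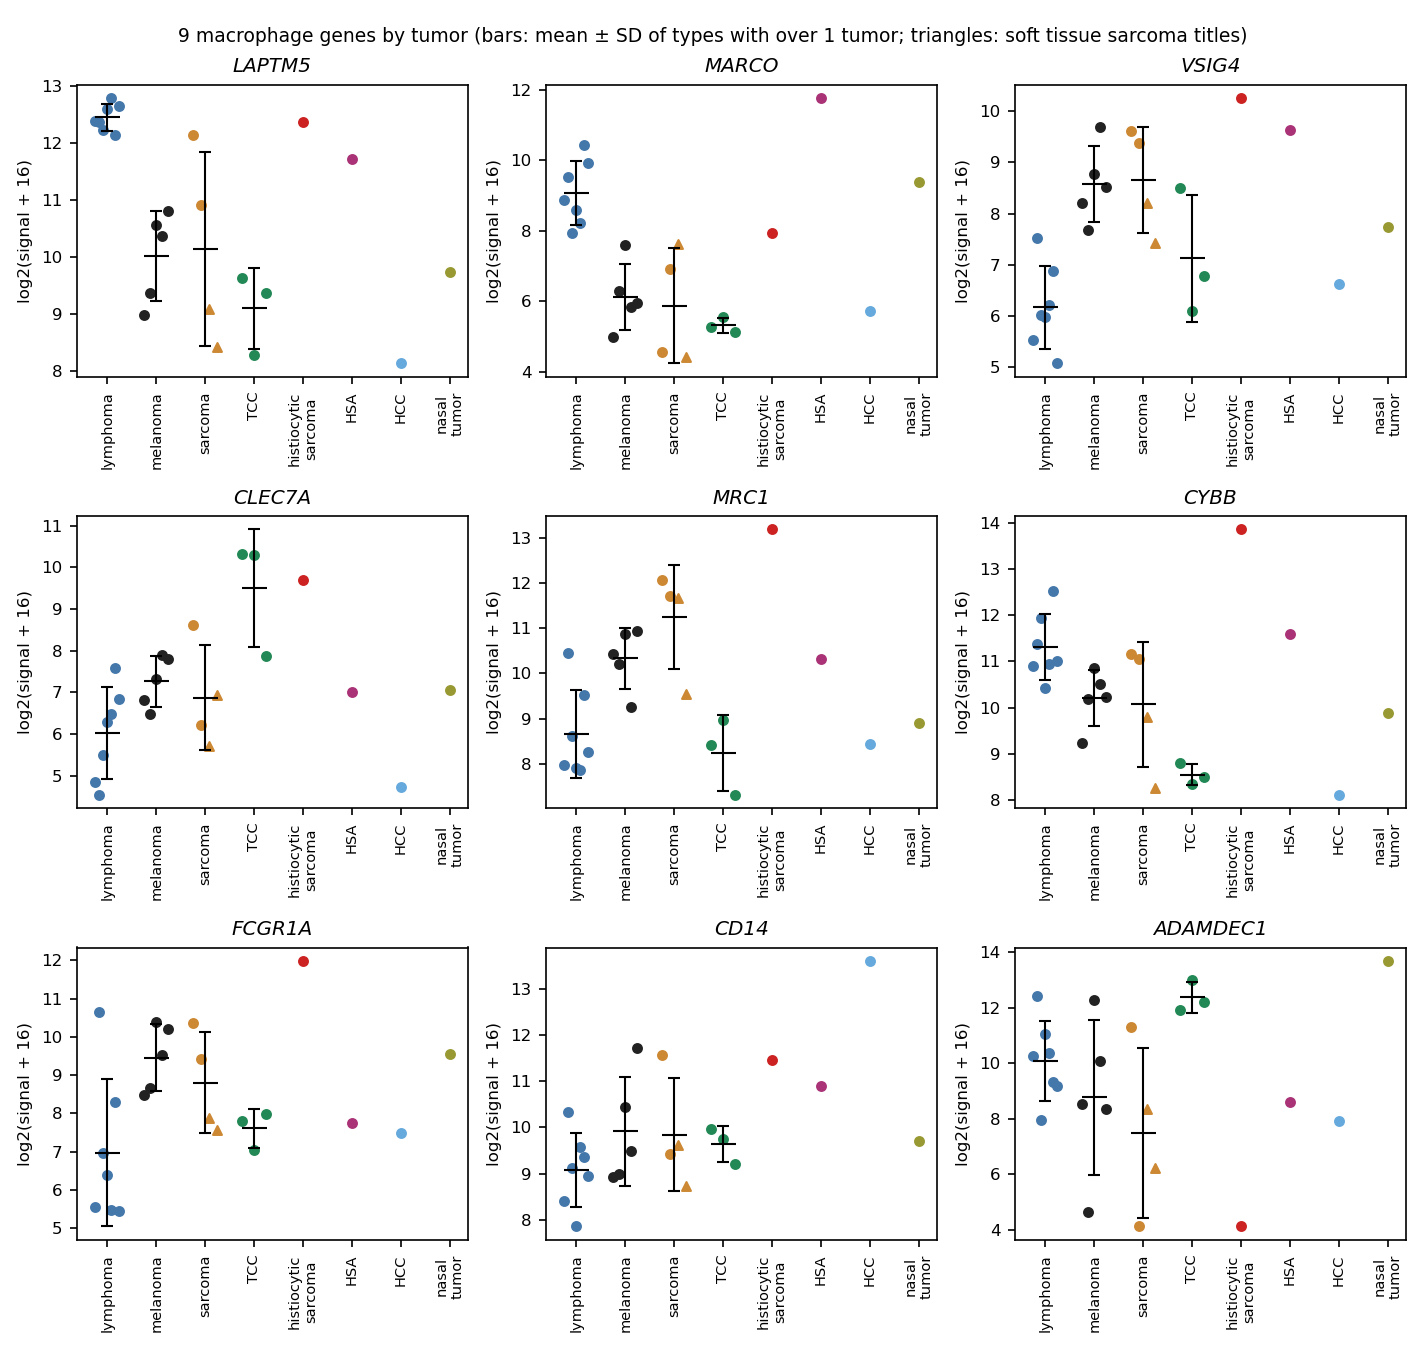
Levels of 9 macrophage genes as log2(signal + 16) (vertical axis) in each tumor, by type (horizontal axis). Points are tumors, triangles the 2 tumors titled soft tissue sarcoma, and bars the mean ± SD of types with over 1 tumor. LAPTM5 and MARCO are highest in lymphoma among those 4 types, VSIG4 is low there, CLEC7A is highest in TCC 0 and TCC 1, and the histiocytic sarcoma is the top tumor for VSIG4, MRC1, CYBB and FCGR1A.

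The 4 types with 1 tumor have no replicate, so no test goes with their distances from the average of the other 22. In the histiocytic sarcoma 26 of the 35 genes were at least 1 log2 unit higher (10.4% of all genes) and 1 was at least 1 lower (7.95%). The median difference was 2.27, and -0.02 over all genes. All 8 lineage genes were among the 26. CSF1R was 12.35, 2.76 above the others' mean, CD68 was 9.68 (2.26 above) and SPI1 was 9.38 (2.47 above). Each of these 3 was the highest of the 23 tumors, with the next tumor at 11.84, 8.42 and 8.70.

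The 5 largest increases in the histiocytic sarcoma were FCGR1A at 11.99 (3.86 above the mean of the others), MRC1 at 13.19 (3.66), CYBB at 13.86 (3.61), MSR1 at 12.68 (3.60) and CD209 at 10.77 (3.34). The first 4 were above every other tumor, and CD209 was second to lymphoma 5. CD163 was 10.07 and AIF1 13.04, 2.78 and 2.43 above, and LYZ was 14.52 (2.27 above). C1QA, C1QB and C1QC were 2.45, 2.70 and 2.37 above the mean of the others, each second to the HSA. CD14 was 1.65 above. TREM2 was -0.59 from the others' mean and MARCO 0.64 above it. ADAMDEC1, the gene that was lower, stood at 4.13, next to the floor of 4 as in sarcoma 1, so that neither the size of its difference nor an order of these 2 tumors can be read.

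In the HSA 25 of the 35 genes were at least 1 log2 unit above the mean of the other 22 (11.6% of all genes) and 0 were 1 below (8.98%), with a median difference of 1.58 (0.01 over all genes). MARCO was 11.77, 4.65 above the mean of the others, with the next tumor at 10.44. AIF1 was 13.88 (3.31 above), C1QA 13.38 (3.21), C1QB 12.43 (3.12) and C1QC 13.56 (2.94). These 5 were the largest differences and each was the highest level of the 23 tumors, as were HMOX1 at 9.57 (next 7.87) and STAB1 at 9.47 (next 9.40). CSF1R was 11.84 (2.23 above), CD163 10.05 (2.76), LYZ 13.59 (1.30) and CD14 10.88 (1.06). CD68 was 7.59, 0.08 above, within the SD of 0.80 of the other tumors.

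The HSA held other cell types' markers as well, beside 11.6% of all genes that were at least 1 log2 unit higher. Of the neutrophil genes 5 of 6 were higher (CAMP by 4.47, MPO by 2.996, S100A8 by 2.60, S100A9 by 2.45). So were 5 of 5 smooth muscle genes, 3 of 9 T cell genes and 2 of 6 B cell genes. In the histiocytic sarcoma 0 of the 6 neutrophil genes were higher (10.4% of all genes) and 3 were lower (7.95%). There 5 of 9 T cell genes were higher (CD3D by 2.34). Of 11 dendritic cell genes 3 were higher there (XCR1 by 2.84, BATF3 by 1.65, CD83 by 1.47) and 1 lower. In the HSA 5 of the 11 were higher and 2 lower (8.98% of all genes). XCR1, BATF3 and CD83 stood at 8.84, 8.46 and 9.10 in the histiocytic sarcoma and at 8.03, 8.17 and 8.88 in the HSA. The part of these other cell types in the macrophage genes' levels was not tested.

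Set side by side, a comparison chosen after the values were seen, the histiocytic sarcoma was at least 1 log2 unit above the HSA for 11 of the 35 genes (12.4% of all genes) and at least 1 below it for 4 (12.8%), and 20 were within 1. FCGR1A was 4.23 higher in the histiocytic sarcoma, MRC1 2.87, CLEC7A 2.71, CYBB 2.26, PLA2G7 2.20 and CD68 2.09. ADAMDEC1, MARCO, HMOX1 and TREM2 were the 4 that were higher in the HSA, the histiocytic sarcoma minus the HSA being -3.84 for MARCO, -2.11 for HMOX1 and -1.63 for TREM2. ADAMDEC1 was 8.60 in the HSA and next to the floor in the histiocytic sarcoma, which gives its difference no size. CD163 (0.02), ADGRE1 (0.01), SLC11A1 (0.04) and FCER1G (0.12) were nearest to equal. With 1 tumor each, the difference between tumors and the difference between types cannot be told apart.

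**Figure D5:**
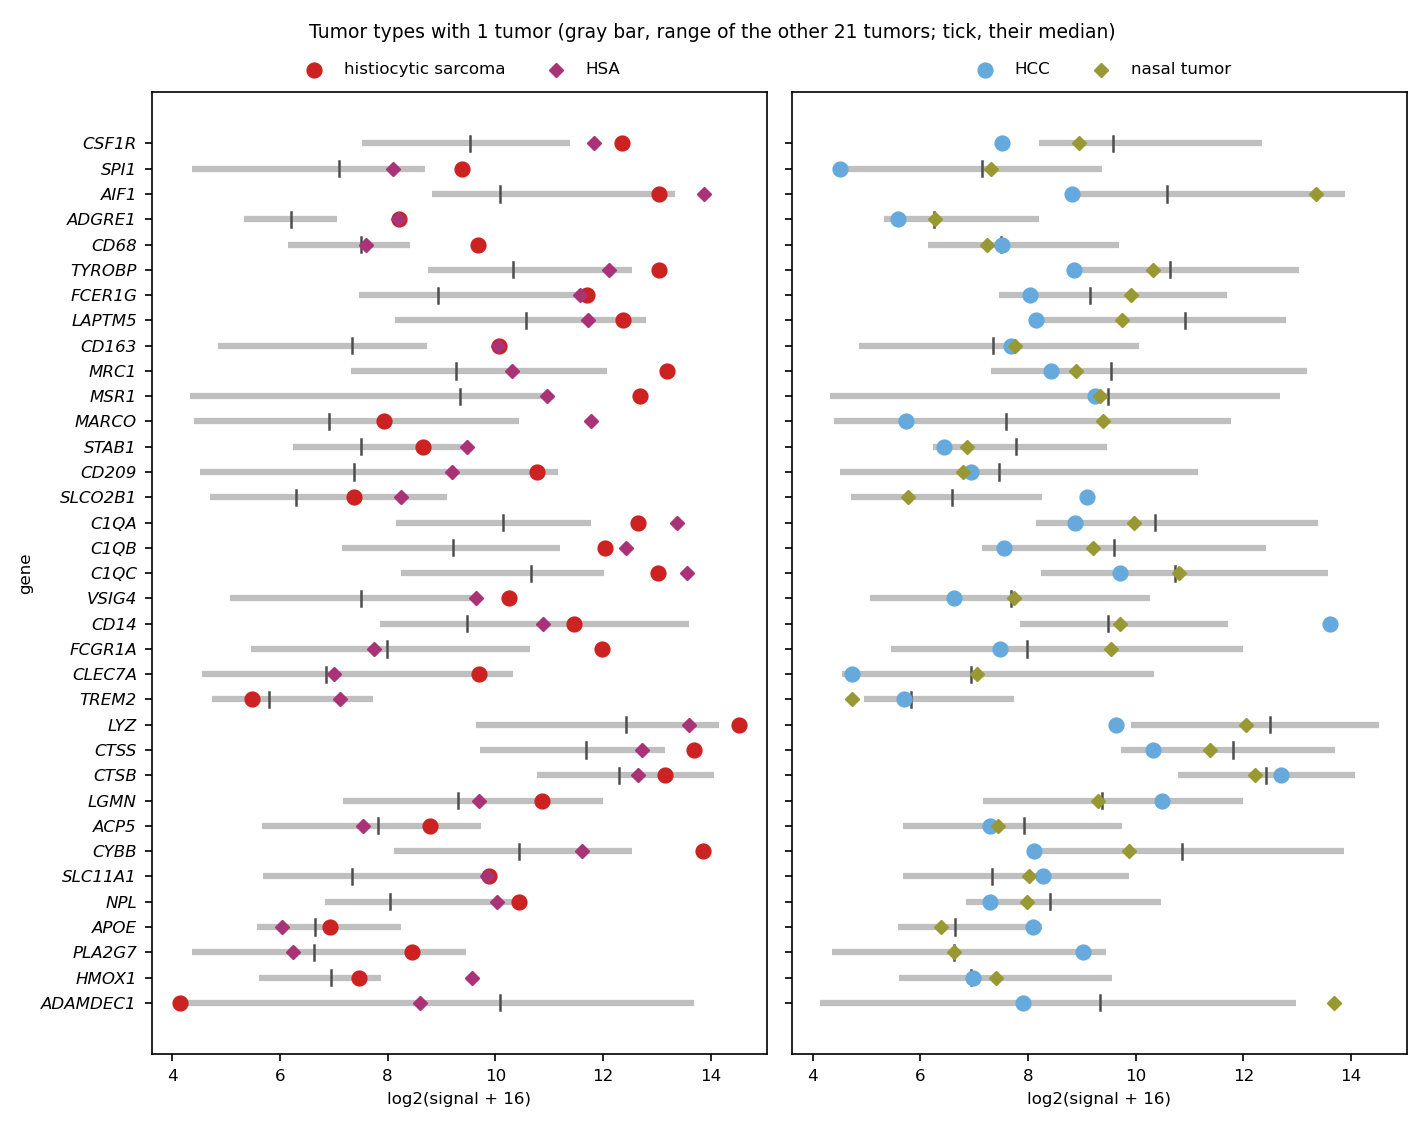
Levels of the 35 macrophage genes (rows) as log2(signal + 16) (horizontal axis) in the histiocytic sarcoma and the HSA (left panel) and in the HCC and the nasal tumor (right panel). Gray bars span the other 21 tumors and ticks mark their median. On the left most points lie right of the bar or in its upper part, with ADAMDEC1 of the histiocytic sarcoma at the far left, and on the right CD14 and SLCO2B1 of the HCC and ADAMDEC1 of the nasal tumor lie right of their bars, while CSF1R, AIF1, LAPTM5, LYZ and CYBB of the HCC and TREM2 of the nasal tumor lie left of theirs.

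In the HCC 19 of the 35 genes were at least 1 log2 unit below the mean of the other 22 tumors (28.3% of all genes) and 5 at least 1 above (13.5%), with a median difference of -1.09 (all genes -0.32). CSF1R (7.52), AIF1 (8.82), LAPTM5 (8.14), LYZ (9.64) and CYBB (8.11) were the lowest of all 23 tumors, -2.30, -1.99, -2.72, -2.84 and -2.41 from the others' mean. C1QA, C1QB and C1QC were -1.50, -1.99 and -1.09 from it. CD68 (7.52) and CD163 (7.68) were -0.002 and 0.28 from it. Lymphocyte markers were at least 1 log2 unit lower here too, for 8 of 9 T cell and 5 of 6 B cell genes, and their part in these values was not tested.

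The 5 genes that were higher in the HCC were CD14 at 13.60 (3.90 above), SLCO2B1 at 9.10 (2.75), PLA2G7 at 9.02 (2.13), APOE at 8.10 (1.37) and LGMN at 10.49 (1.07). CD14 and SLCO2B1 were the highest of the 23 tumors, with the next at 11.72 and 8.25. CD14, SLCO2B1 and APOE are known to be made by hepatocytes too. The hepatocyte marker SERPINA1 was 8.45 above the mean of the others in this tumor, and 2.44 above it in the histiocytic sarcoma. It was the only 1 of 7 annotated hepatocyte genes to pass the filter. The rest stood from 10.68 (ALB) to 15.89 (CYP2E1) in the HCC. The part of hepatocytes in the levels of CD14, SLCO2B1 and APOE was not tested.

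The nasal tumor had the fewest differences of the 4. At least 1 log2 unit above the mean of the others were 4 of the 35 genes (11.2% of all genes), ADAMDEC1 at 13.69 (4.50 above), AIF1 at 13.35 (2.75), MARCO at 9.39 (2.16) and FCGR1A at 9.54 (1.30). TREM2 (4.73, -1.38) and LAPTM5 (9.74, -1.04) were at least 1 lower (9.48% of all genes). AIF1 stood apart from the other lineage genes here: CSF1R was 8.94 (-0.81), CD68 7.25 (-0.29) and TYROBP 10.33 (-0.24). CD163, CD14 and LYZ were 0.37, -0.18 and -0.32 from the mean, and C1QA, C1QB and C1QC were -0.36, -0.24 and 0.06 from it.

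Tumors of 1 type differed from each other more in these genes than in most. The median SD within the type was 0.81 for the 35 genes and 0.50 for all genes in lymphoma, 0.74 and 0.54 in melanoma, 1.22 and 0.57 in sarcoma, and 0.53 and 0.36 in TCC. The widest spread, in sarcoma, went with the titles. Both tumors titled sarcoma were above both titled soft tissue sarcoma for 23 of the 35 genes (19.6% of all genes) and below both for 0 (15.3%), and the mean of the former was higher for 34 of 35, all but MARCO. The median difference was 1.40 log2 units for the 35 genes and 0.06 for all genes. LAPTM5 was 12.13 and 10.91 against 9.09 and 8.42, C1QC 11.75 and 12.01 against 10.22 and 8.24, and CSF1R 11.38 and 10.61 against 9.90 and 9.52. Lymphocyte and general leukocyte markers went with the same titles: both tumors titled sarcoma were above both titled soft tissue sarcoma for 8 of 9 T cell genes and 5 of 6 B cell genes, with median differences of 2.08 and 2.16. The mean z over the T cell genes was 0.19 and 0.17 against -1.06 and -0.99, and PTPRC, the leukocyte antigen CD45, was 10.71 and 10.69 against 8.03 and 8.50. Their part in the macrophage genes' difference was not tested. This comparison of 2 tumors with 2 was chosen after the values were seen and was not tested.

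Single tumors set much of the spread. Sarcoma 0 was the highest sarcoma for 22 of the 35 genes (27.6% of all genes) and soft tissue sarcoma 1 the lowest for 26 (25.5%). The latter also had the highest 3' to 5' GAPDH ratio of the 23 arrays, but its EF1A ratio of 8.02 lay well below the highest, 13.46. The part of these ratios was not tested. TCC 0 was the highest TCC for 22 (37.7%) and TCC 1 the lowest for 22 (43.7%). Melanoma 4 was the highest melanoma for 14 (20.4%) and melanoma 0 the lowest for 18 (24.2%). Among the lymphomas, lymphoma 5 was highest for 13 (9.62%) and lymphoma 1 for 11 (13.8%). Lymphoma 5 led for AIF1 (12.64), LYZ (14.16) and CYBB (12.54), and lymphoma 1 for TYROBP (12.54), FCER1G (11.54) and FCGR1A (10.65). The steadiest genes within a type were LAPTM5 in lymphoma (SD 0.24), CD163 in melanoma (0.34), STAB1 in sarcoma (0.49) and SLC11A1 in TCC (0.14).

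Other genes of macrophage biology were read from 3 further lists. The first held 12 genes of monocyte recruitment, chemokines with their receptors and the anaphylatoxin receptors. In the histiocytic sarcoma 11 were at least 1 log2 unit higher (10.4% of all genes) and 0 lower (7.95%). CCL13 was 11.10 (5.42 above the mean of the others), CCL7 10.71 (4.93), CCL5 13.05 (4.34) and CCL8 10.66 (4.01). In the HSA 5 were higher (11.6% of all genes) and 3 lower (8.98%), and CCL13 was 4.30. In the HCC 8 were lower (28.3% of all genes), among them CCL5 (-3.90) and the C3a receptor gene C3AR1 (-3.32). In limma 2 were lower in TCC (4.36% of all genes). They were CCL2, the main monocyte chemokine (-2.93 ± 0.89, SE, adjusted p = 0.0333), and C5AR1, the C5a receptor (-1.02 ± 0.32, adjusted p = 0.0366). In lymphoma CCR2 was higher (2.14 ± 0.59, adjusted p = 0.00889) and CX3CL1 lower (-1.25 ± 0.45, adjusted p = 0.0397), beside 6.95% and 12.1% of all genes. None was called in melanoma or sarcoma.

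Of 37 further phagocyte genes, 28 were at least 1 log2 unit higher in the histiocytic sarcoma (10.4% of all genes) and 1 lower (7.95%). In the HSA 16 were higher (11.6%) and 6 lower (8.98%). The largest in the histiocytic sarcoma were ITGAX, the integrin CD11c (10.14, 3.84 above), SPP1, osteopontin (13.23, 3.82), TIMD4, a receptor for dying cells (12.15, 3.24), and CD86, a co-stimulatory ligand (12.50, 2.50). In the HSA they were CD5L, a secreted protein of tissue macrophages (12.21, 4.62 above), SLC40A1, the iron exporter ferroportin (12.76, 3.80), TIMD4 (11.68, 2.76) and SIGLEC1, sialoadhesin (9.31, 2.74). ITGAX and SLC40A1 went opposite ways in the 2 tumors, ITGAX standing next to the floor in the HSA at 4.35 and SLC40A1 at 8.03 in the histiocytic sarcoma (-1.14). In the HCC 18 of the 37 were lower (28.3% of all genes) and 4 higher, which is below the share of all genes (13.5%).

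In the limma fit 10 of the 37 were higher in lymphoma (6.95% of all genes) and 3 lower, below the share of all genes (12.1%). PTPRC, the leukocyte antigen CD45 (3.84 ± 0.38, SE, adjusted p = 7.31e-07), CD48 (3.59 ± 0.42) and CD53 (3.56 ± 0.38) were higher and GPNMB (-3.67 ± 0.83) was lower. The first 3 are general leukocyte genes that lymphocytes carry. There were 3 that were higher in melanoma (2.55% of all genes), led by GPNMB (3.98 ± 0.92, adjusted p = 0.0125), a glycoprotein that melanocytes also make. CTSD was the only call in sarcoma, lower (-2.12 ± 0.48, adjusted p = 0.0105), beside 1.71% of all genes. In TCC 2 were higher, below the share of all genes (6.82%), led by CTSD (2.67 ± 0.53, adjusted p = 0.00181). There 6 were lower (4.36%), among them CD53 (-2.60 ± 0.50), TIMD4 (-2.59 ± 0.53) and PTPRC (-2.46 ± 0.50).

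The third list held 7 genes past the filter, around the CSF1 receptor and its transcription factors and kinases. In the histiocytic sarcoma 5 were at least 1 log2 unit higher (10.4% of all genes), led by CSF2RA, a chain of the GM-CSF receptor (9.69, 3.11 above). In the HSA 5 were higher (11.6%), among them IL34, the second ligand of CSF1R (8.58, 1.38 above). CSF1 itself did not pass the filter. In lymphoma SYK (2.10 ± 0.55), IRF8 (1.97 ± 0.35) and FGR (1.81 ± 0.40) were higher in limma (6.95% of all genes). In TCC IRF8 was lower (-2.07 ± 0.46, SE, adjusted p = 0.00484), beside 4.36% of all genes, and melanoma and sarcoma had 0 calls. SYK and IRF8 are also B cell genes, and T and B cell markers were lower in TCC for 3 of 9 and 2 of 6 genes.

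Neighboring myeloid cells were read the same way. Of 11 dendritic cell genes, 5 were higher in lymphoma in limma (6.95% of all genes). They were led by LAMP3 (5.08 ± 0.58, SE, adjusted p = 3.56e-06), CCL19 (4.27 ± 0.70) and CCR7 (2.31 ± 0.42), genes of mature dendritic cells in lymph nodes. CCR7 is also a receptor of lymphocytes, whose markers were higher in the same tumors for 7 of 9 T cell and 5 of 6 B cell genes. CCR7 was highest in lymphomas 4, 6 and 3 (9.73, 9.15 and 9.11), the 3 with the highest mean z over the T cell genes (2.11, 1.77 and 1.58). LAMP3 was highest in lymphomas 2 and 0 (13.33 and 13.32), the pair with the highest mean z over the B cell genes (2.07 in each). The part of lymphocytes in these levels was not tested. FSCN1, an actin bundler, was higher in sarcoma (2.06 ± 0.47) and lower in TCC (-2.78 ± 0.52), where CCL19 was lower too (-3.60 ± 0.92). Of 6 neutrophil genes, 0 were called in any of the 4 types in limma, where each type and direction had 1.71% to 12.1% of all genes. CAMP in lymphoma and MMP9 and S100A9 in melanoma had an unadjusted p under 0.05 in that fit. Of 4 osteoclast genes, CTSK, a collagen-degrading cathepsin, was lower in lymphoma (-2.39 ± 0.47) and higher in melanoma (1.83 ± 0.52), and the integrin ITGB3 was lower in lymphoma (-2.07 ± 0.34) and higher in TCC (2.11 ± 0.44).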

How the data were processed

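Biopsies of 23 canine tumors were profiled on Affymetrix Canine Genome 2.0 arrays after whole-transcriptome amplification. The deposited values are linear intensity signals per probeset, which the authors computed with MAS5 and scaled array by array to a common trimmed mean; its software version is stated in neither the labels nor the methods. MAS5 subtracts mismatch signals, so low signals are noisy, and arrays give no read depth. Precision is set by how many arrays a type has.

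Of 42924 probesets, the 29254 with exactly 1 symbol in the platform annotation were used. The symbols are the annotation's own and can be old, and probesets with several symbols or none were left out. Each signal was taken to log2(signal + 16), and a gene's level is the mean of its probesets. Genes above the median of all gene values (7.03) in at least 3 tumors were kept, 9972 of 15115. Groups follow the diagnosis in the labels, and tumors titled sarcoma and soft tissue sarcoma were joined. limma 3.58.1 in R 4.3.3 was fitted over the 19 tumors of the 4 types with replicates, with a variance trend, each type against the mean of the other 3, with Benjamini-Hochberg adjustment over all genes kept. A call required adjusted p below 0.05 and a change of 1 log2 unit or more. The 4 single tumors were compared with the mean of the other 22 without a test. On simulated data with known changes, the fit recovered 80% to 92% of genes changed by 2 and 96% to 100% of those changed by 4 log2 units. The simulated noise was normal, with the same spread of a gene in all 4 types. It therefore does not cover types of unequal spread, nor changes below 2 log2 units, the size of most of the calls.

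Macrophage genes and the other lists were chosen with earlier results of these data known. Values are given for genes called in a comparison, for the 5 largest differences in a single tumor, for the largest and smallest spread within a type, and for CSF1R, CD68, CD163, AIF1, CD14, C1QA, C1QB, C1QC and LYZ whatever their values. From each other list up to 4 genes of largest change are named.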

Additional observations from a re-analysis of the deposited data

Results flagged for a closer look

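Each macrophage gene was checked for a single tumor far from the rest of its type in lymphoma, melanoma and sarcoma, 105 groups in all. By Dixon's criterion 4 were marked, where chance alone marks about 1 group in 20. The 4 are thus no more than that rate would mark, and they are listed as values only. CD209 was 11.16 in lymphoma 5, with the next lymphoma at 8.58. CTSS was 13.16 in lymphoma 5, with the next at 12.24. LGMN was 7.17 in lymphoma 6, below the next lymphoma at 8.46. MRC1 was 9.54 in soft tissue sarcoma 1, below the next sarcoma at 11.66.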

How the results depend on the processing

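The 24 calls in limma kept their direction in all alternatives run. Over these calls, 358 of 456 values with 1 tumor left out kept the call and 98 lost it, and under the 7 other settings 123 of 168 kept it and 45 lost it. The differences of the single tumors have no test. Of those of at least 1 log2 unit, 1779 of 1804 values with 1 tumor left out stayed that large in the same direction and 25 did not, and 390 of 406 did under the other settings and 16 did not. Of these 406, 8 moved by more than the spread between tumors and 1 reversed, VSIG4 in the HCC, which was 0.27 with the brightest probeset against -1.09 with the mean. Shares of all genes called under the same setting stand in parentheses for the limma counts. For the counts of single tumors they were not computed under these settings, so those counts have no share beside them. With a pseudocount of 64 the number lower in lymphoma was 3 (8.98%), higher in TCC 2 (6.75%), lower in TCC 4 (3.37%), lower in the nasal tumor 1 and lower in the HSA 1. With a pseudocount of 1 the number lower in the histiocytic sarcoma was 2 and lower in the nasal tumor 4. Without the filter 5 were lower in lymphoma (7.91%). With the brightest probeset 4 were lower in TCC (4.89%) and 1 in the HSA, and with quantile normalization 1 was lower in the HSA. Against all other tumors as 2 groups, 2 were higher in lymphoma (5.73%), 0 higher in sarcoma (limma, 0.882%) and 0 lower in TCC (0.802%). The cause of these shifts was not tested. With a pseudocount of 1 and with quantile normalization 34 of the 35 genes passed the filter.

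Leaving out each tumor in turn gave 4 to 5 genes higher (6.57% to 7.42% of all genes) and 4 to 8 lower (11.3% to 12.3%) in lymphoma. In melanoma 0 to 1 were higher (2.04% to 2.81%) and 0 to 0 lower (1.32% to 2.1%). In sarcoma 1 to 5 were higher (3.12% to 4.37%) and 0 to 1 lower (0.923% to 2.32%). In TCC 0 to 2 were higher (4.41% to 7.06%) and 1 to 11 lower (1.61% to 4.83%), and 9 to 18 genes passed the F test (29.7% to 35.3%). For the single tumors the shares were computed with no tumor left out only. The histiocytic sarcoma had 26 to 28 higher (10.4%) and 1 to 1 lower (7.95%), and the HSA 24 to 25 higher (11.6%) and 0 to 1 lower (8.98%). The HCC had 4 to 5 higher (13.5%) and 17 to 19 lower (28.3%), and the nasal tumor 4 to 4 higher (11.2%) and 1 to 3 lower (9.48%).

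The number in the title does not pair the tumors: over 23 pairs of tumors with the same number and different types the deviations from the type means correlated at 0.01 on average, from -0.12 to 0.09. With it as a replicate block, 3 genes were higher (6% of all genes) and 4 lower (9.98%) in lymphoma, 0 higher in sarcoma (2.81%) and 2 lower in TCC (3.28%), and 9 passed the F test (25.3%). Of the 24 calls 10 were kept with the block and 14 lost.

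Updating the symbols through gene IDs was not run, because no ID of the annotation matched the reference table. The types with 3 or 4 tumors and the 4 single tumors set the main limits, and levels near the floor of 4 have no order.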
